A study of Macaca mulatta with 2 samples.

Results

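Cells that held RERGL together with genes of the smooth muscle contractile machinery were examined in single-cell RNA sequencing of the trabecular meshwork of rhesus macaques (Macaca mulatta), the filter tissue through which aqueous humour leaves the eye. RERGL (ENSMMUG00000047016) encodes a small RAS-like protein that is known as a marker of vascular smooth muscle. A cell counted as a member when it held at least 1 unique molecular identifier (UMI, 1 counted RNA molecule) of RERGL, at least 1 UMI each of at least 2 of the 5 genes ACTG2, PLN, MYH11, CNN1 and TNNC1, and 0 UMIs of PECAM1, an endothelial gene, and of CDH19, a Schwann cell gene. Barcodes entered with at least 500 genes detected and under 20% of their UMIs in mitochondrial genes. There were 905 members among 14063 kept barcodes, of which 446 came from the glaucoma and 459 from the normal library.

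The series held 1 library labelled glaucoma and 1 labelled normal, and its design text speaks of monkeys with spontaneous primary open-angle glaucoma set against healthy controls. The labels give the diagnosis under genotype, name no allele, treatment, age or sex, and give no number of animals or eyes. Both tissues were digested with collagenase for 20 min and run on the same droplet kit, which counts the 3-prime ends of RNA. With 1 library per diagnosis there was no replicate, so no test between diagnoses was made, and diagnosis, animal, dissection and day of work cannot be told apart.

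Levels are counts per 1e+06 UMIs (CPM), summed over the cells of a kind in a library. Differences are log2 ratios with 95% intervals in brackets; these reflect the counting of molecules alone and hold no spread between animals or cells. Calls were limited to genes with at least 50 UMIs over the cells compared, and needed a ratio of at least 2-fold whose interval excluded equality. Members held 1345828 UMIs (glaucoma) and 1589870 UMIs (normal), so that a count of 0 allows a level of up to 2.23 and 1.89 CPM (3 counts). Their median depth was 2512.5 UMIs and 1168 genes in the glaucoma library against 3131 UMIs and 1410 genes in the normal library, and their median mitochondrial share was 6.09% against 3.47%. Called doublets, pairs of cells read under 1 barcode, made up 10 of the glaucoma and 3 of the normal members, and were kept.

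Vascular smooth muscle wraps arteries and veins and sets their width. Calcium entering the cytoplasm leads to activation of myosin light chain kinase, and phosphorylated myosin pulls on actin; myosin phosphatase reverses this, and the ROCK kinases restrain the phosphatase. Nitric oxide raises cyclic GMP and relaxes the cell. In the outflow region the vessels lie beside the ciliary muscle, a separate smooth muscle driven by acetylcholine through the muscarinic receptor CHRM3, and beside pericytes, the mural cells of the smallest vessels.

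Members carried the contractile filament genes at high levels in both libraries. TAGLN (ENSMMUG00000002058), transgelin, an actin-binding protein, was at 15094 CPM in glaucoma members and 14964 CPM in normal members. In the same order, the alpha-actin of smooth muscle, ACTA2, stood at 9479 and 8771 CPM, TPM2, a tropomyosin, at 10981 and 10676 CPM, and MYL9, the regulatory myosin light chain, at 7574 and 9477 CPM. Macrophage-type cells, which are not known to make these proteins and served as the reference for free RNA in the droplets, had 407 and 362 CPM of TAGLN and 257 and 337 CPM of ACTA2. Their median depths were 4229 and 4837.5 UMIs.

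The genes that chose the members are given as a description. RERGL stood at 3885 CPM in glaucoma members and 4869 CPM in normal members, against 30.7 and 79.7 CPM in macrophage-type cells, and single members held from 1 to 70 UMIs (median 9) and from 1 to 105 UMIs (median 13). MYH11, smooth muscle myosin heavy chain, was at 3325 and 5740.1 CPM, a log2 ratio of glaucoma over normal of -0.79 [-0.84, -0.74]. ACTG2, smooth muscle gamma-actin, was at 1303 and 1209.5 CPM, CNN1, calponin, at 1223 and 1050.4 CPM, and PLN, phospholamban, the brake on the calcium pump of the sarcoplasmic reticulum, at 1448 and 1438 CPM. TNNC1 encodes troponin C of slow skeletal and heart muscle. It was at 412 and 479 CPM, and after each cell was thinned to 1500 UMIs 25.1% and 30.7% of members held a TNNC1 UMI (26.7% and 37.7% before), against 0.725% and 1.63% of macrophage-type cells. TNNC1 was therefore present in a minority of members at this depth. Thinning left out 52 members in each library.

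In cells with RERGL, the levels of TAGLN and ACTA2 rose with the number of the 5 muscle genes held. The numbers of cells were not graded in this way. From 0 to 5 genes, the glaucoma library had 320, 203, 78, 82, 180 and 106 cells. The normal library had 211, 121, 52, 91, 172 and 144. In both libraries the number was lowest at 2 genes, the first step inside the limit, and higher again at 4. Just outside the limit, cells with 1 gene had 4225 and 3005 CPM of TAGLN and 1083 and 685 CPM of ACTA2. Just inside, cells with 2 genes had 6928 and 5414 CPM of TAGLN and 2959.8 and 2167 CPM of ACTA2. With all 5 genes the levels were 20368 and 19058 CPM of TAGLN and 14685 and 11452 CPM of ACTA2. Of the genes known from pericytes, ABCC9 and NDUFA4L2 were lower at 5 genes than at 0. ABCC9, the sulfonylurea receptor subunit of a potassium channel, went from 417 and 607 CPM with 0 genes to 23.1 and 17.9 CPM with 5, and NDUFA4L2, a hypoxia-linked mitochondrial protein, from 1352 and 1178 to 165 and 159 CPM. COX4I2, another gene known from pericytes, was at 3581 and 4149.9 CPM with 0 genes, 1116 and 1123 with 4 and 1637 and 1323 with 5. NOTCH3, a receptor of mural cells, was at 27.4 and 47.6 CPM with 0 genes and at 28.9 and 41.1 with 5. Depth moved along the series too: the median was 1459.5 and 2074 UMIs at 0 genes and 3108 and 3704 UMIs at 5, and its part in the gradient was not tested.

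**Figure D1:**
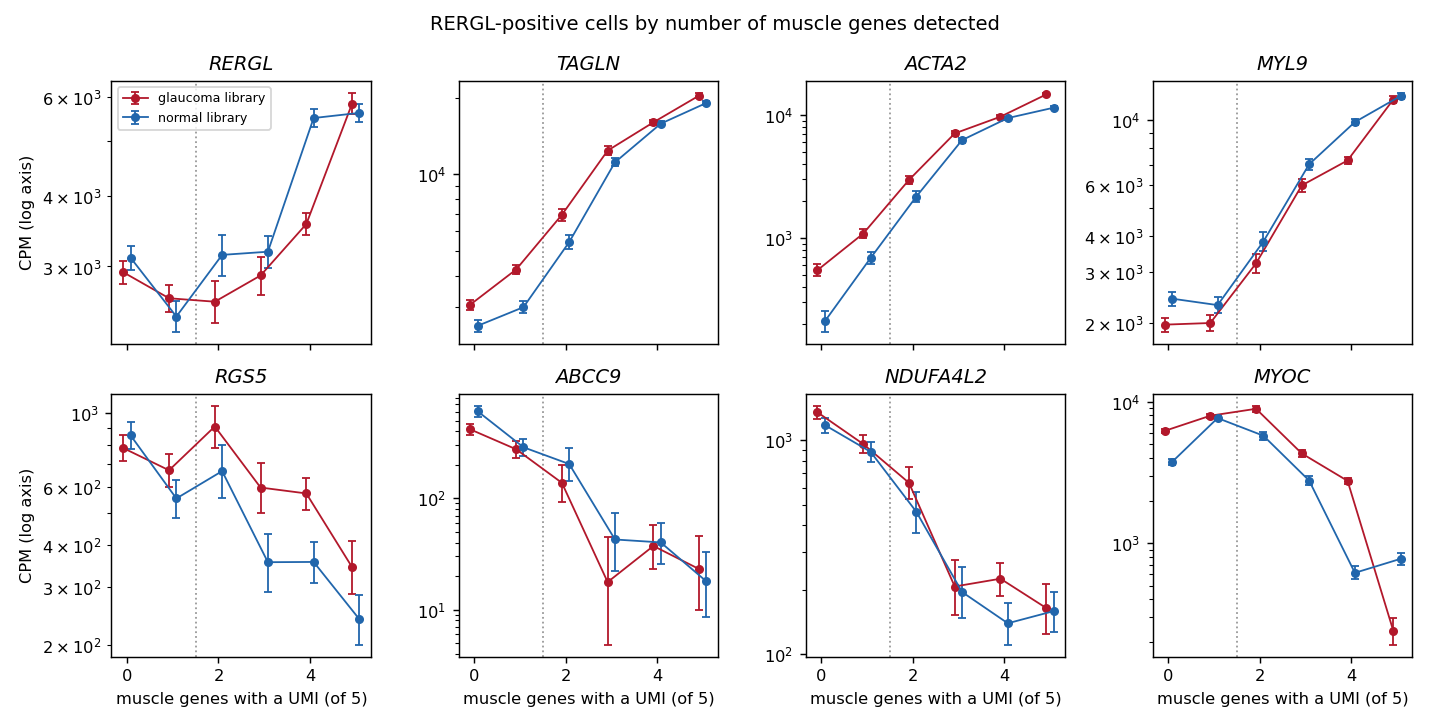
Levels of 8 genes (CPM, log axes, bars are 95% counting intervals) in cells with RERGL, by how many of the 5 muscle genes they held, for the glaucoma library (red) and the normal library (blue); the dotted line is the limit for members. TAGLN, ACTA2 and MYL9 stand higher and ABCC9 and NDUFA4L2 lower at 5 genes than at 0 in both libraries, while MYOC in the glaucoma library lies at 8899 CPM with 2 genes and 240 CPM with 5.

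Members also held RNA of meshwork marker genes, and which cells it came from was not tested. MYOC, myocilin, which meshwork cells make in quantity, was at 3327 CPM in glaucoma members and 1622 CPM in normal members, at 13955 and 7977 CPM in muscle cells without RERGL and at 1039 and 1106 CPM in macrophage-type cells. Summed over the 8 meshwork marker genes of the list, members had 3824 and 1871 CPM and macrophage-type cells 1191 and 1187 CPM. Within members MYOC was at 8899 and 5742 CPM in cells with 2 muscle genes, 2754 and 616 CPM in cells with 4 and 239.7 and 774 CPM in cells with 5. The median member held 0 UMIs of MYOC in the glaucoma library, where 45.7% held any. The share of members with a MYOC UMI at 1500 UMIs was 31.0% and 19.9%. It was 26.1% and 17.1% in macrophage-type cells and 87.6% and 86.5% in muscle cells without RERGL. Because the glaucoma members held more of this RNA, values restricted to members with at least 4 of the 5 muscle genes were added after the data were seen. They are printed wherever they end a call between the libraries in a gene still tested. Of the called genes of the text, 57 were still tested under this restriction and 50 kept their call. Called genes that fell under the UMI minimum there, among them CCN2, THBS1, IL6 and ADORA2A, have no call in these stricter members.

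Marker genes of other cell types left smaller traces. Of the 10 endothelial genes members summed to 438 and 480 CPM, nearly all of it ESAM (389 and 448 CPM), which mural cells also make, while PECAM1 was at 0 by rule and VWF and CLDN5 were at 0 in the normal library. The 9 macrophage genes summed to 88.4 and 52.2 CPM with CD68 at 0, the 9 T and NK cell genes to 32.0 and 3.77 CPM with CD3E and CD3G at 0, and the 4 cycling genes to 5.94 and 3.14 CPM. The 3 erythroid genes summed to 518 and 355 CPM. HBB was among them at 117 and 18.2 CPM, with 41.1% of its UMIs of the glaucoma library in 1 barcode. The part of these traces in the results below was not tested.

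Members were not uniform in RERGL, and those with a single UMI of it looked less like the rest. There were 31 such glaucoma cells and 39 such normal cells. They had 623 and 1264 CPM of CHRM3, the receptor of ciliary muscle, against 29.4 and 35.0 CPM in the 339 and 376 members with at least 5 RERGL UMIs. Their TNNC1 level was 0 and 28.3 CPM against 519 and 566, and their TAGLN level 5878 and 4012 CPM against 16692 and 16933. MYOC was at 9466 and 6669.5 CPM in them and at 2238 and 1052 CPM in members with at least 5. The markers of members with 1 RERGL UMI thus went against the vascular label, and these cells made up 31 of 446 and 39 of 459 members. The 76 and 44 members with 2 to 4 RERGL UMIs also had more CHRM3 than those with at least 5, at 97.4 and 494 CPM. Their TAGLN level was 14335 and 10272 CPM and their MYOC level 3949 and 392 CPM. RERGL itself chose these groups, so its own levels say nothing more.

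**Figure D2:**
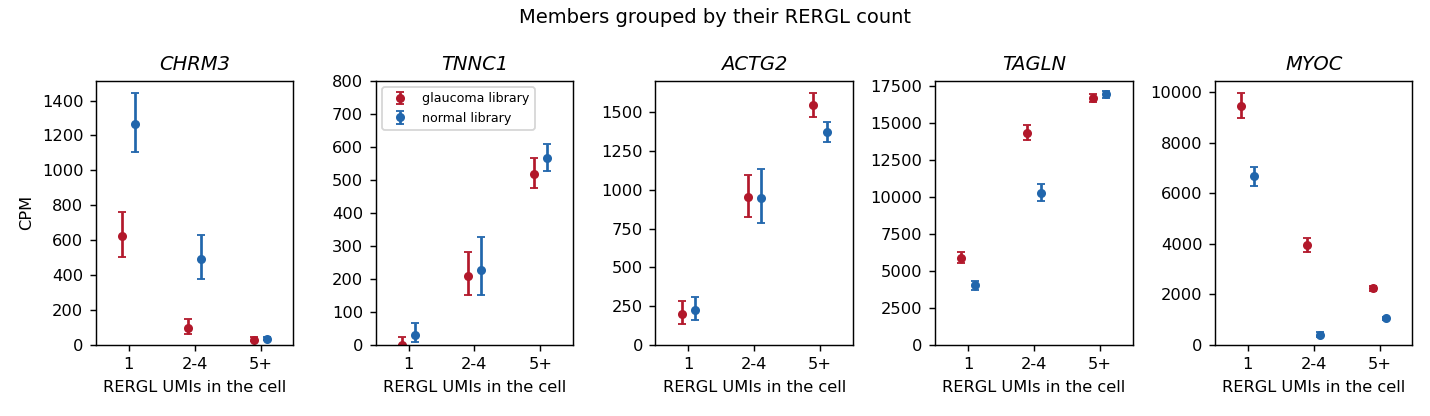
Levels of 5 genes (CPM from 0, bars are 95% counting intervals) in members with 1, 2 to 4, and 5 or more RERGL UMIs, for the glaucoma library (red) and the normal library (blue). CHRM3 and MYOC are highest at 1 UMI in both libraries, and TNNC1, ACTG2 and TAGLN are highest at 5 or more.

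The muscle cells without RERGL were taken as a neighbour for comparison. These held at least 2 of the same 5 genes and 0 UMIs of RERGL, PECAM1 and CDH19. They numbered 745 (glaucoma) and 721 (normal), with median depths of 5661 and 6444 UMIs. Muscle is here the name of a gene rule, and whether all these cells were muscle was not tested. Without thinning, 94.5% and 92.4% of them held a MYOC UMI, and 44.7% and 85.2% a CHRM3 UMI. Their MGP level was 28145 and 7103 CPM, against 24717 and 15339 CPM in all kept cells other than members. The make-up of this set may therefore differ between the libraries. Of 7178 genes tested, 328 (4.57%) were called higher in members in both libraries and 440 (6.13%) lower. With at least 4 of the 5 genes on both sides, 318 of 4379 (7.26%) were higher and 271 (6.19%) lower. The contrast rests on cells sorted by whether they held RERGL, so it is given as a description of both kinds.

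Among the 10 genes with the largest higher values in members was GJA4, the gap junction protein connexin 37, at 308 and 359 CPM in members and 1.73 and 1.44 CPM in muscle without RERGL. ESAM, a cell adhesion molecule, was at 389 and 448 CPM against 5.41 and 3.92 CPM, and FABP4, a fatty acid carrier, at 207 and 134 CPM against 0.649 and 0.825 CPM. PGF, placental growth factor, was at 258 and 299 CPM against 3.24 and 1.65 CPM, and ANGPT2, angiopoietin 2, which acts on the TIE2 receptor of endothelium, at 143 and 249 CPM against 1.73 and 3.30 CPM. COL14A1, a collagen that sits on fibrils, was at 145 and 140.3 CPM against 2.81 and 2.27 CPM. Each of these was higher in members in both libraries, and also with at least 4 of the 5 genes on both sides. Cells with RERGL and none of the muscle genes held several of them too, with GJA4 at 662 and 699 CPM, ESAM at 284 and 305 CPM, ANGPT2 at 118 and 187 CPM and COL14A1 at 224 and 244 CPM. SLC38A11, PLAAT2, CALML6 and P2RX1 completed the 10.

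Among the genes that stood lower in members was CHRM3. It was at 108 and 208 CPM in members and at 549.6 and 1759 CPM in muscle without RERGL, log2 differences of -2.35 [-2.60, -2.11] and -3.08 [-3.24, -2.92]. At 1500 UMIs, 4.57% and 7.13% of members held a CHRM3 UMI, against 33.4% and 77.5% of muscle cells without RERGL and 1.69% and 4.07% of macrophage-type cells. Of the 7 genes listed for ciliary-type muscle, 4 were tested in this contrast besides the ones the rule used, and 2 of them were called lower in members and 0 higher. These were CHRM3 and NPNT, nephronectin, a ligand of integrin alpha 8, at 28.2 and 30.2 CPM against 56.7 and 139 CPM. DES, desmin, the intermediate filament of muscle, was at 1016 and 936 CPM against 1571 and 1931 CPM and was not called; with at least 4 of the 5 genes on both sides it was called lower in members. The genes with the largest lower values by rule were KCNK3, TSPAN18, SEMA3E, PGAM2, BASP1, RSPO3, CLIC5, PDPN, PCDH10 and RSPO2. KCNK3, an acid-sensitive potassium channel, was at 2.97 and 12.6 CPM against 41.3 and 137 CPM, and RSPO2, a secreted enhancer of Wnt signalling, at 40.9 and 17.6 CPM against 220.1 and 101 CPM.

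**Figure D3:**
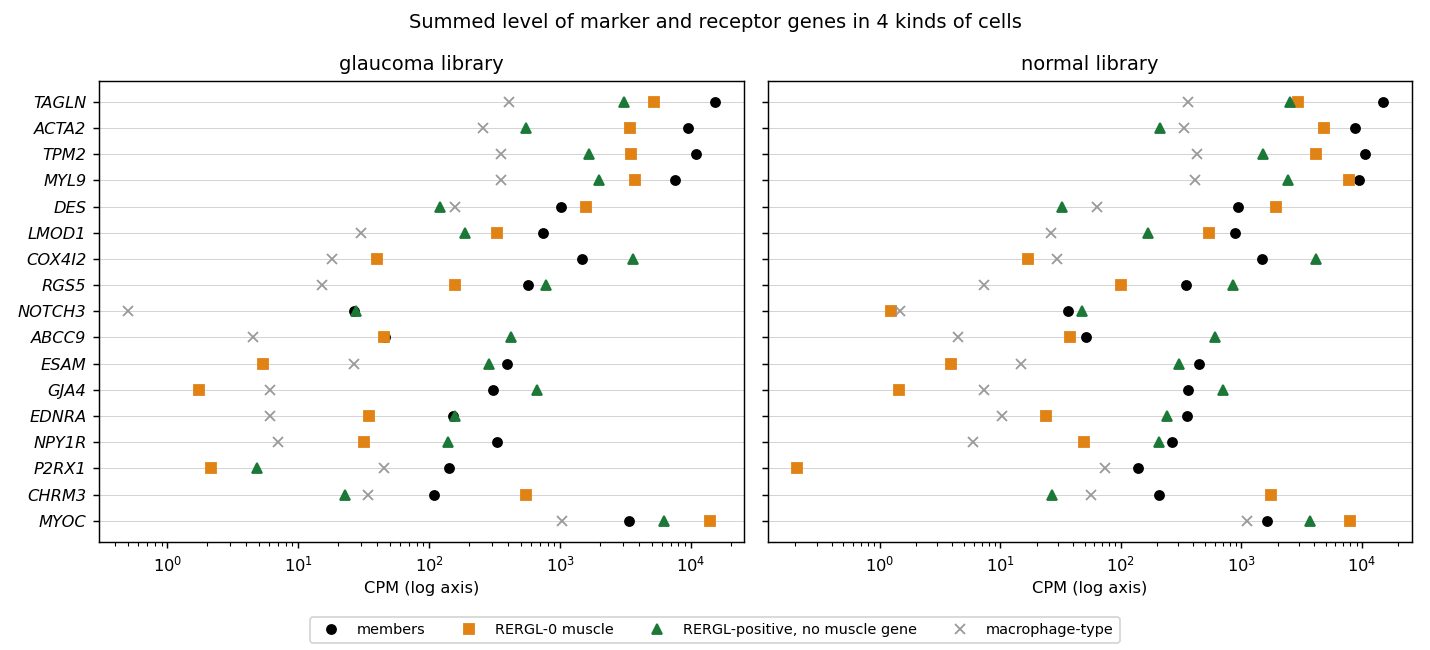
Summed levels (CPM, log axis) of 17 genes in members (black circles), muscle cells without RERGL (orange squares), cells with RERGL and none of the 5 muscle genes (green triangles) and macrophage-type cells (grey crosses), 1 panel per library; a level of 0 is not drawn. GJA4 and ESAM of members lie far to the right of muscle without RERGL and CHRM3 far to the left, and ABCC9 and COX4I2 lie left of the cells with RERGL and no muscle gene.

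The cells with RERGL and none of the 5 muscle genes, 320 and 211 in number, were the other neighbour. They were compared after the data were seen, because the cells picked by pericyte genes held MYOC at 21781 and 26373 CPM. Against the cells picked by pericyte genes, 509 genes (7.37%) were higher in members and 647 (9.37%) lower. Against the cells with RERGL and no muscle gene, 190 of 4421 genes tested (4.3%) were higher in both libraries and 197 (4.46%) lower. Of the 21 filament genes tested outside the rule, 18 were higher in members and 0 lower. The cells were sorted by muscle genes, which favours higher filament genes in members, so this contrast is a description only. Median depth differed too, at 1459.5 and 2074 UMIs against 2512.5 and 3131 UMIs in members. Of 11 pericyte marker genes tested, 7 were lower in members and 1 higher. COX4I2, a subunit of cytochrome oxidase, was at 1460.1 and 1486 CPM in members against 3581 and 4149.9 CPM, PDGFRB, the receptor for platelet-derived growth factor B, at 173 and 239.6 CPM against 509 and 838 CPM, and ABCC9 at 46.1 and 50.9 CPM against 417 and 607 CPM. MCAM, the adhesion molecule CD146, was the exception, higher in members at 116 and 116 CPM against 46.7 and 49.5 CPM. RGS5, a brake on G protein signalling that marks mural cells, was at 569.9 and 349.7 CPM against 783 and 855 CPM and not called. Against muscle without RERGL, 6 of 8 tested pericyte markers were higher in members and 1, KCNJ8, was lower. MEF2C, a muscle transcription factor, stood lower than in the cells without muscle genes (282 and 335 CPM against 651 and 1045 CPM) and higher than in muscle without RERGL (40.7 and 31.8 CPM). Members lay between the other kinds in COX4I2, RGS5 and MEF2C.

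The largest differences from these cells, in genes the rule did not use, were in CALML6, ITIH3, P2RX1, CASQ2, ACTA2, GPR20, PCP4L1, WFDC1, NET1 and SPEG on the higher side. CASQ2, the calcium store protein calsequestrin, was at 139.7 and 141 CPM against 6.44 and 5.71 CPM, and SPEG, a kinase of the muscle calcium store, at 123 and 147 CPM against 12.9 and 9.52 CPM. On the lower side were LPL, STEAP4, CYGB, ABCC9, SEPTIN4, NDUFA4L2, PI16, HIC1, TMEM119 and TMEM176B. LPL, lipoprotein lipase, was at 14.9 and 24.5 CPM against 187 and 491 CPM. Within members alone, 1 barcode held 22.7% and 46.8% of the UMIs of PI16.

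Members made up 5.17% [4.71, 5.65] of kept glaucoma cells and 8.45% [7.73, 9.22] of kept normal cells (exact Clopper-Pearson intervals). The log2 ratio of the shares was -0.71 [-0.90, -0.52]. At 1500 UMIs per cell the shares were 5.52% and 8.78%. The ratio was -0.62 [-0.77, -0.47] for muscle cells without RERGL and -0.07 [-0.32, 0.19] for cells with RERGL and no muscle gene, and 1.07 [0.79, 1.37] for macrophage-type cells. A share is lower where another cell type is more abundant, and digestion sets which cells are recovered, so the share of vessels in the tissue was not measured.

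Between the libraries, 174 of 5771 genes tested in members (3.02%) were called higher in glaucoma and 289 (5.01%) lower. The median log2 ratio of all tested genes was -0.11, and after centring on it the split was 222 higher and 196 lower. The median was -0.08 in muscle cells without RERGL and -0.12 in all other cells. Ratios in muscle cells without RERGL, here and below, may also reflect which cells met that rule in each library. This was not tested. In members with at least 4 of the 5 muscle genes, 139 of 4693 (2.96%) were higher and 277 (5.9%) lower. Comparisons of list medians below are against -0.11, and counts of called genes in a list are to be read beside 3.02% higher and 5.01% lower.

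Of 21 filament genes tested outside the rule, 0 were called higher in glaucoma and 2 lower, where 5.01% of all tested genes were lower. Their median was -0.27. Of their intervals, 13 lay wholly below 0 and 4 above, against 25% and 15.9% over all tested genes. TAGLN differed by 0.01 [-0.01, 0.04], TPM2 by 0.04 [0.01, 0.07] and ACTA2 by 0.11 [0.08, 0.15]. MYL9 was at -0.32 [-0.36, -0.29] and MYL6, the essential light chain, at -0.39 [-0.43, -0.36]. The called genes were SYNPO2, a linker of actin bundles, at 67.6 and 148 CPM (-1.13 [-1.49, -0.77]), and SYNM, the intermediate filament protein synemin, at 246 and 513 CPM (-1.06 [-1.25, -0.88]). SYNM was -0.59 and lost its call with no mitochondrial limit. MYLK, myosin light chain kinase, was at 1599.8 and 3089.6 CPM (-0.95 [-1.02, -0.88]), just short of the 2-fold limit. In muscle without RERGL the median of the same genes was -0.86 and MYLK was at -1.39, and in all other cells the median was -0.71.

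Of 15 calcium handling genes tested outside the rule, 0 were called higher and 1 lower, with a median of -0.30. PLN, which the rule used, differed by 0.01 [-0.08, 0.10] and CASQ2 by -0.01 [-0.30, 0.27]. SLC8A1, the sodium-calcium exchanger, was at 75.8 and 127 CPM (-0.75 [-1.10, -0.39]). The called gene was ITPR1, the calcium release channel opened by inositol trisphosphate, at 60.9 and 175 CPM (-1.53 [-1.90, -1.17]). Its ratio was -1.67 in muscle without RERGL and -1.94 in all other cells, and it was not called in members with at least 5 RERGL UMIs (-0.99) or with no mitochondrial limit (-0.64). SLC8A1 set members apart from muscle without RERGL, which had 4.76 and 4.95 CPM. RYR2 had 18 and 26 UMIs and CACNA1C, the pore of the L-type calcium channel, 6 and 5 UMIs, too few to compare.

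Among potassium and other channel genes, 8 were tested, 0 were higher and 1 lower. KCNJ8 and ABCC9, which together form the ATP-sensitive potassium channel of vessels, differed between libraries by 0.22 [-0.14, 0.58] and -0.15 [-0.65, 0.35]. KCNAB1, a potassium channel subunit, was lower at 11.1 and 34.6 CPM (-1.63 [-2.56, -0.79]). ANO1, a calcium-activated chloride channel that depolarises smooth muscle, was at 72.1 and 74.2 CPM in members, at 0.865 and 2.47 CPM in muscle without RERGL and at 172 and 239.9 CPM in cells with RERGL and no muscle gene.

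Of the receptors that start contraction, 6 of the 21 genes in the files reached 50 UMIs in members, 0 were higher in glaucoma and 2 were lower. EDNRA (ENSMMUG00000003659), the endothelin A receptor, was at 151 CPM in glaucoma members and 357 CPM in normal members, a log2 ratio of -1.24 [-1.48, -1.01]. It was -1.24 in members with at least 4 muscle genes, 0.53 in muscle without RERGL, where its level was 34.8 and 24.1 CPM, and -0.41 in all other cells. At 1500 UMIs, 19.3% [15.5, 23.5] of glaucoma members and 44.5% [39.6, 49.4] of normal members held an EDNRA UMI (34.5% and 63.4% before thinning), against 0.483% and 0.813% of macrophage-type cells. Cells with RERGL and no muscle gene went the same way, at 15.03% [9.77, 21.7] and 29.33% [22.2, 37.3] (25.3% and 42.7% before thinning). The lower EDNRA share in glaucoma was therefore not particular to members. S1PR3, a receptor for sphingosine 1-phosphate, was at 50.5 and 129.6 CPM (-1.36 [-1.78, -0.96]), and its ratio was -2.10 in muscle without RERGL and -1.84 in all other cells.

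The other 4 contraction receptors were between the limits. EDNRB, the endothelin B receptor, differed by -0.01 [-0.31, 0.30] at 123 and 124 CPM. P2RX1, the channel opened by ATP from sympathetic nerves, was at 140.4 and 138 CPM (0.02 [-0.27, 0.31]). P2RX1 stood at 2.16 and 0.206 CPM in muscle without RERGL and at 45.2 and 73.8 CPM in macrophage-type cells. NPY1R, the receptor for neuropeptide Y, a sympathetic cotransmitter, was at 329.9 and 265 CPM (0.31 [0.12, 0.51]), against 31.8 and 49.3 CPM in muscle without RERGL. CHRM3 was at -0.95, at 0.55 with no mitochondrial limit, where its direction turned, and at -1.13 and called lower after thinning to 1500 UMIs. As above, it was concentrated in members with few RERGL UMIs. The angiotensin receptor AGTR1 had 0 and 1 UMIs, and ADRA1A, an alpha-1 adrenoceptor, 0 and 0 UMIs.

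Of the receptors of relaxing signals, 5 were tested and 2 were called higher, both at low counts. RAMP2, a subunit of the adrenomedullin receptor, was at 29.7 and 12.0 CPM (1.31 [0.49, 2.18]), and ADORA2A, an adenosine receptor, at 39.4 and 18.2 CPM (1.11 [0.43, 1.82]). RAMP2 fell under the UMI minimum in members with at least 4 muscle genes, where it stood at 0.86. ADORA2A lost its call with at least 3 muscle genes (0.77), with no mitochondrial limit (0.89), with at least 2 RERGL UMIs (0.94) and with at least 5 (0.84). CALCRL, the partner of the RAMP proteins, was at 78.0 and 135 CPM (-0.79 [-1.14, -0.45]), and RAMP1, which makes it a receptor for calcitonin gene-related peptide, at 263 and 287 CPM (-0.12 [-0.33, 0.08]).

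The genes between nitric oxide, cyclic nucleotides and myosin phosphatase stood mostly lower in glaucoma members. Of 21 tested, 0 were higher and 5 lower, and 17 had an interval wholly below 0, with a median of -0.69. Over all tested genes 5.01% were called lower and 25% had an interval wholly below 0. PDE5A, the phosphodiesterase that breaks down cyclic GMP, was at 276 CPM in glaucoma members and 672 CPM in normal members (-1.29 [-1.46, -1.11]). ROCK1, a kinase that restrains myosin phosphatase, was at 427 and 907 CPM (-1.09 [-1.23, -0.95]), and PPP1R12A, the targeting subunit of myosin phosphatase, at 867 and 1835 CPM (-1.08 [-1.18, -0.98]). PPP1CB, the catalytic subunit of that phosphatase, was at 26.0 and 83.7 CPM (-1.69 [-2.27, -1.14]), and ARHGEF12, an activator of RHOA, at 89.2 and 187 CPM (-1.07 [-1.39, -0.76]). In the same list PPP1R14A, an inhibitor of the phosphatase known as CPI-17, was at 1009.8 and 918 CPM (0.14 [0.03, 0.24]), and the guanylate cyclase subunits GUCY1A1 and GUCY1B1, the nitric oxide receptor, at -0.22 [-0.52, 0.07] and -0.26 [-0.42, -0.10].

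Lower values in this list were also found outside the members. Its median was -0.75 in muscle cells without RERGL, -0.76 in all other cells and -0.41 in macrophage-type cells. PDE5A stood at -1.57 in muscle without RERGL and -1.73 in all other cells, PPP1R12A at -1.68 and -1.74, and ROCK1 at -1.10 and -0.76. With no mitochondrial limit PDE5A was -0.64 and PPP1R12A -0.76, neither called. With at least 4 muscle genes PPP1R12A was -0.98 and ARHGEF12 -0.90, both short of the limit. ARHGEF12 lost its call under 7 of 15 alternatives, at -0.98 to -0.83. Centring on the median gene left ROCK1 and PPP1R12A at -0.98. Of 22 genes of the list tested against muscle without RERGL, 8 were higher in members and 0 lower. PPP1R14A was at 75.7 and 36.5 CPM in that muscle, GUCY1B1 at 101 and 73.6 CPM against 409 and 489 CPM in members, and ROCK1 at 129.5 and 279 CPM.

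**Figure D4:**
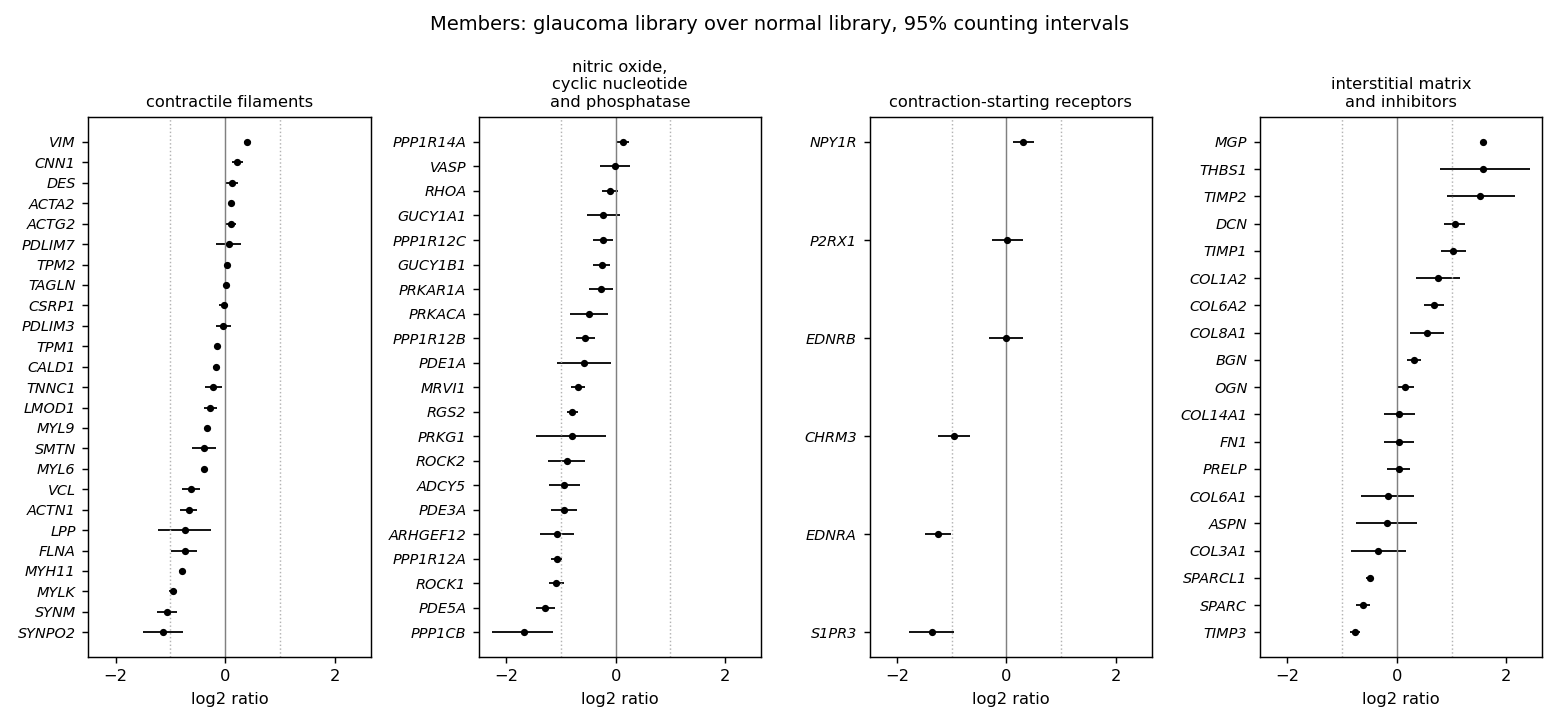
Log2 ratio of the glaucoma over the normal library in members (points, with 95% counting intervals) for the tested genes of 4 lists; dotted lines mark 2-fold. Of the filament genes, drawn with those the rule used, SYNPO2 and SYNM pass 2-fold, 17 of 21 nitric oxide, cyclic nucleotide and phosphatase genes have intervals below 0, EDNRA and S1PR3 lie left of the 2-fold line, and MGP, THBS1, TIMP2, DCN and TIMP1 lie right of it.

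Regulators of G proteins and RAS-like genes showed no call among 9 tested outside the rule. RGS5 was at 569.9 CPM in glaucoma members and 349.7 CPM in normal members (0.70 [0.55, 0.86]). RGS2, which shuts off signals from Gq-coupled receptors and is a target of cyclic GMP signalling, was at 859.7 and 1491 CPM (-0.79 [-0.90, -0.69]). RGS16 was at 492 and 879 CPM (-0.84 [-0.97, -0.70]), and RRAS, an integrin-linked RAS protein, at 621 and 414 CPM (0.59 [0.44, 0.74]). RGS5 and RRAS were nearer to higher and RGS2 and RGS16 nearer to lower, all within 2-fold.

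In the list of smooth muscle transcription factors, 13 genes were tested, 2 were higher, 1 was lower and the median was -0.48. FOXC1, a forkhead factor of mural cells and of the front of the eye, was at 257 CPM in glaucoma members and 126 CPM in normal members (1.02 [0.77, 1.28]), and its relative FOXC2 at 29.0 and 13.8 CPM (1.07 [0.28, 1.89]). FOXC1 was 0.77 in muscle without RERGL and 0.72 in all other cells. Both lost their calls with no mitochondrial limit (0.92 and 0.84). MYOCD, myocardin, the coactivator of contractile genes, was at 34.9 and 47.2 CPM (-0.43 [-0.99, 0.11]), and its partner SRF at 33.4 and 59.1 CPM (-0.82 [-1.37, -0.29]). KLF4, a repressor of contractile genes and an early response gene, was at 66.9 and 144 CPM (-1.11 [-1.48, -0.75]), and lost its call under 6 of 15 alternatives, at -0.90 to -0.51. It was -0.89 with at least 4 muscle genes and -0.51 with no limit on PECAM1 and CDH19. NR2F2, a factor of veins, was at -0.47 [-0.60, -0.35].

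Notch signalling between endothelium and mural cells keeps vascular muscle differentiated. Of its genes, 5 were tested in members and 0 were called, with a median of -0.56. JAG1, the ligand Jagged 1, was at 494 and 754 CPM (-0.61 [-0.75, -0.47]), and the target genes HEY2 and HES4 at -0.93 [-1.19, -0.67] and 0.46 [0.26, 0.66]. NOTCH3, the receptor of mural cells, was at 26.7 and 36.5 CPM (-0.45 [-1.09, 0.18]). In muscle without RERGL JAG1 was at 37.2 and 35.7 CPM, HES4 at 14.7 and 13.6 CPM and NOTCH3 at 0 and 1.24 CPM. JAG1, HEY2 and HES4 were called higher in members in both libraries, whereas NOTCH3 had too few UMIs for a call.

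Of 19 interstitial matrix and inhibitor genes, 5 were called higher in glaucoma and 0 lower, with a median of 0.15. Over all tested genes 3.02% were called higher. MGP (ENSMMUG00000047247), matrix Gla protein, an inhibitor of calcification, was at 8971 CPM in glaucoma members and 3003 CPM in normal members (1.58 [1.53, 1.63]). It was at 28145 and 7103 CPM in muscle without RERGL (1.99) and 2081 and 1188 CPM in macrophage-type cells, and the median member held 6 UMIs in glaucoma. In members with 0 UMIs of MYOC the ratio was 0.74 and the call was lost. THBS1, thrombospondin 1, was at 35.7 and 12.0 CPM (1.58 [0.78, 2.43]), TIMP2, a metalloproteinase inhibitor, at 58.0 and 20.1 CPM (1.53 [0.91, 2.17]), and DCN, decorin, a fibroblast proteoglycan, at 443 and 213 CPM (1.05 [0.86, 1.25]). TIMP1 was at 344 and 168 CPM (1.03 [0.81, 1.26]) but between 0.46 and 0.99 under 8 alternatives that ended its call, among them 0.84 with at least 4 muscle genes. DCN lost its call with no mitochondrial limit (0.89). DCN, MGP and TIMP1 are made by fibroblasts and meshwork cells, and their levels in muscle without RERGL were 909 and 518 CPM, 28145 and 7103 CPM and 784 and 293 CPM.

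The basement membrane and elastic matrix list had 15 genes tested, 1 higher and 1 lower. COL18A1, the chain that yields endostatin, was at 109 and 48.4 CPM (1.17 [0.77, 1.59]), and its ratio was 1.08 in muscle without RERGL and 1.16 in all other cells. COL4A1, type IV collagen, was at 383 and 266 CPM (0.53 [0.34, 0.72]), and COL4A2 at 398 and 439 CPM (-0.14 [-0.31, 0.02]). LTBP1, which holds latent TGF-beta in the matrix, was at 131 and 266 CPM (-1.02 [-1.29, -0.77]), 0.09 in muscle without RERGL and -1.05 in all other cells. It lost its call under 4 of 15 alternatives, at -0.99 to -0.89, and was -0.99 with at least 4 muscle genes. BCAM, a laminin receptor, was at 1074 and 818 CPM in members and 102 and 94.2 CPM in muscle without RERGL.

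Of 21 integrin and focal adhesion genes, 0 were called higher and 1 lower. The caveolar coat genes CAV1 and CAVIN1 differed by -0.02 [-0.25, 0.22] and 0.01 [-0.07, 0.09]. CAVIN3 was at 989.7 and 699 CPM in members and 129 and 91.5 CPM in muscle without RERGL. ITGA8 ran the other way, at 49.8 and 84.9 CPM against 102 and 222 CPM. In the TGF-beta and BMP list 13 were tested and LTBP1 alone was called, while the BMP targets ID1 and ID3 were at 0.42 [0.26, 0.58] and 0.72 [0.60, 0.84].

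Of 20 early response genes tested, 1 was called higher and 4 lower, with a median of -0.48. Over all tested genes 3.02% were called higher and 5.01% lower. EGR1 (ENSMMUG00000018025), a transcription factor induced within minutes by stretch, growth factors or tissue handling, was at 435 CPM in glaucoma members and 2048 CPM in normal members (-2.24 [-2.37, -2.11]). Its ratio was -1.08 in muscle without RERGL and -1.75 in all other cells. At 1500 UMIs, 31.5% of glaucoma members and 67.6% of normal members held an EGR1 UMI (45.3% and 74.5% before thinning). The share was 34.3% and 39.8% in macrophage-type cells, which are no reference for free RNA in this list. Its genes summed to 11148 and 13566 CPM in them, against 8910.5 and 13154.5 CPM in members. The other lower genes were ATF3, a stress-response factor, at 207 and 511 CPM (-1.30 [-1.50, -1.10]), BTG2, an antiproliferative gene, at 80.2 and 170.5 CPM (-1.09 [-1.42, -0.76]), and KLF4, described above. BTG2 lost its call after thinning to 1500 UMIs (-0.80), with 0 UMIs of MYOC (-0.92) and after centring (-0.98). FOS was at 3492 and 4263 CPM (-0.29 [-0.34, -0.23]). CCN2, connective tissue growth factor, was higher at 39.4 and 11.3 CPM (1.80 [1.00, 2.66]).

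In the inflammation list 6 were tested, 0 were higher and 2 lower. NFKBIZ, a coactivator of NF-kappa-B, was at 64.6 and 198 CPM (-1.61 [-1.97, -1.26]), against -0.03 in muscle without RERGL, and IL6 at 10.4 and 28.3 CPM (-1.44 [-2.42, -0.55]) with 1 glaucoma barcode holding 28.6% of its UMIs. Of 13 heat shock genes 0 were higher and 1 was lower, DNAJB1 at 105 and 212 CPM (-1.02 [-1.31, -0.73]), whose call ended under 6 alternatives at -0.75 to -0.99. CRYAB, a small heat shock protein of muscle and meshwork, was at 1548 and 931 CPM (0.73 [0.64, 0.83]), against 1.91 in muscle without RERGL. HSPB6, a relaxation-linked relative, was at 98.1 and 174 CPM (-0.83 [-1.14, -0.52]).

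The interferon and antigen presentation list had 3 of 8 genes higher and 0 lower, all at low counts, where 3.02% of all tested genes were higher. With at least 4 muscle genes 3 genes of the list were tested and 2 called higher. ISG15 was at 54.2 and 15.7 CPM, with 31.5% of its glaucoma UMIs in 1 barcode. PSMB8 and PSMB9, subunits of the immunoproteasome, were at 25.3 and 11.3 CPM and 30.5 and 8.18 CPM. MAMU-A, a class I histocompatibility gene, was at 828 and 433 CPM (0.94 [0.80, 1.08]). In the oxidative stress and metal list 3 of 12 were higher and 0 lower, beside the same 3.02%. These were APOE at 193 and 59.1 CPM, FTL, ferritin light chain, at 815 and 386 CPM (1.08 [0.94, 1.22]), and MT1E, a metallothionein, at 64.6 and 30.2 CPM (1.10 [0.57, 1.64]). FTL lost its call with 0 UMIs of MYOC (0.90) and with no mitochondrial limit (0.96), ISG15 and MT1E with at least 5 RERGL UMIs (0.90 and 0.98), and PSMB8 with no mitochondrial limit (0.93). APOE and FTL are also genes of macrophages, which had 13349 and 11900.5 CPM and 3831 and 2571 CPM. TXNIP, an inhibitor of thioredoxin and of glucose uptake, was at 1294 and 2178 CPM (-0.75 [-0.84, -0.67]) in members and 362 and 461 CPM in muscle without RERGL.

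Of 11 hypoxia and glycolysis genes, 2 were higher and 0 lower. GAPDH was at 620.4 and 293 CPM (1.08 [0.92, 1.25]), with 1.28 in all other cells, and LDHA, lactate dehydrogenase, at 529.8 and 344 CPM (0.62 [0.46, 0.79]). SLC2A1, the glucose transporter GLUT1, was at 139 and 54.1 CPM (1.36 [0.99, 1.75]) and ended as 0.92 with at least 4 muscle genes, not called. Of 20 nuclear genes of oxidative phosphorylation 1 was higher (UQCRH, 1.12 [0.67, 1.59]) and 0 lower; UQCRH was 0.95 with 0 UMIs of MYOC. That list's median was 0.14 in members and -0.52 in muscle without RERGL.

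Among growth factors and binding proteins, 14 were tested, 1 was higher and 2 lower. IGFBP7, a vessel-linked binding protein for insulin-like growth factor, was at 799 CPM in glaucoma members and 277 CPM in normal members (1.53 [1.36, 1.69]), and its ratio was 1.70 in muscle without RERGL and 1.66 in all other cells. IGFBP5 ran the opposite way at 1053 and 2413 CPM (-1.20 [-1.29, -1.11]), -1.52 and -1.66 in the same other cells. IGFBP2 was at 2394 and 1274 CPM (0.91 [0.83, 0.99]). IGF1 itself was called lower at 9.66 and 37.7 CPM (-1.97 on the log2 scale), but 1 barcode held 46.7% of its UMIs in the normal library, and with at least 4 muscle genes it was under the UMI minimum at -0.51. ANGPT2 was at 143 and 249 CPM (-0.80 [-1.05, -0.54]), ANGPT1, its counterpart on the same receptor, at 170.2 and 225 CPM (-0.40 [-0.65, -0.16]), and PDGFA at 50.5 and 29.6 CPM (0.77 [0.22, 1.34]).

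The ranking of single genes was limited to those with at least 100 UMIs over members, no barcode with over 20% of the UMIs in either library, and no mitochondrial, ribosomal protein or haemoglobin gene. Under it, the 15 genes highest in glaucoma members included, from the top, SERPINE2, TNNT1, PCSK1N, GPX4, MGP, IGFBP7, TIMP2, FHL2, S100A10, LIN7B, TULP2, SLC2A1, TMEM176A and SQLE. SERPINE2, an inhibitor of thrombin and plasminogen activators, was at 120.4 and 27.7 CPM (2.12 [1.63, 2.64]). A UMI of it was held by 9.87% and 5.88% of members. It stood at 377 and 85.2 CPM in muscle without RERGL and was called lower in members. PCSK1N, MGP, FHL2, S100A10 and SLC2A1 were likewise called lower in members than in that muscle. With at least 4 of the 5 genes on both sides PCSK1N kept this call, whereas SERPINE2, MGP, FHL2 and S100A10 lost it. MGP of members over that muscle was then at -0.07 in the glaucoma and 0.76 in the normal library. GPX4, IGFBP7, TIMP2, LIN7B and TULP2 had no call there. TNNT1, slow skeletal troponin T, was at 84.7 and 19.5 CPM (2.12 [1.54, 2.74]). GPX4, the enzyme that reduces lipid peroxides, was at 89.2 and 28.3 CPM (1.66 [1.15, 2.18]), and FHL2, a coactivator of muscle genes, at 137 and 48.4 CPM. Of these 15, 12 were also at least 2-fold higher in muscle without RERGL and 8 in all other cells, and 13 were called in members with at least 4 muscle genes. PCSK1N was 0.79 after thinning to 1500 UMIs, and SQLE was 0.99 with at least 4 muscle genes, 0.96 after thinning and 0.85 with 0 UMIs of MYOC, each without a call. TNNT1 stood at 5.03 in muscle without RERGL and 4.43 in all other cells. TULP2 was at 1.41 [0.95, 1.89] in members, 0.29 in muscle without RERGL and -0.06 in all other cells.

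The 15 lowest under the same limits were HIP1, EGR1, SELENBP1, RBBP6, KLF10, PPP1CB, EEF2K, MED1, NFKBIZ, ITPR1, ZBTB7C, PLCB1, OR51E1, PKP4 and DGKG. HIP1, a clathrin adaptor, was at 9.66 and 57.9 CPM (-2.58 [-3.55, -1.74]), against -0.79 in muscle without RERGL and -0.67 in all other cells. OR51E1, an odorant-type receptor, was at 33.4 and 93.7 CPM (-1.49) and was listed at 0 and 0.206 CPM in muscle without RERGL. KLF10, an early target of TGF-beta, was at 58.7 and 191 CPM (-1.70 [-2.08, -1.34]), and PLCB1, the phospholipase that makes inositol trisphosphate, at 17.1 and 48.4 CPM (-1.50 [-2.24, -0.81]). EEF2K, a kinase that slows translation, was at 17.8 and 56.0 CPM (-1.65 [-2.37, -0.99]), against -0.34 and 0.15. Of these 15, 6 were also at least 2-fold lower in muscle without RERGL and 10 in all other cells, and 15 were called in members with at least 4 muscle genes. With no mitochondrial limit DGKG was -0.83, and with no limit on PECAM1 and CDH19 PLCB1 was -0.99. Differences between these ratios were not tested.

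**Figure D5:**
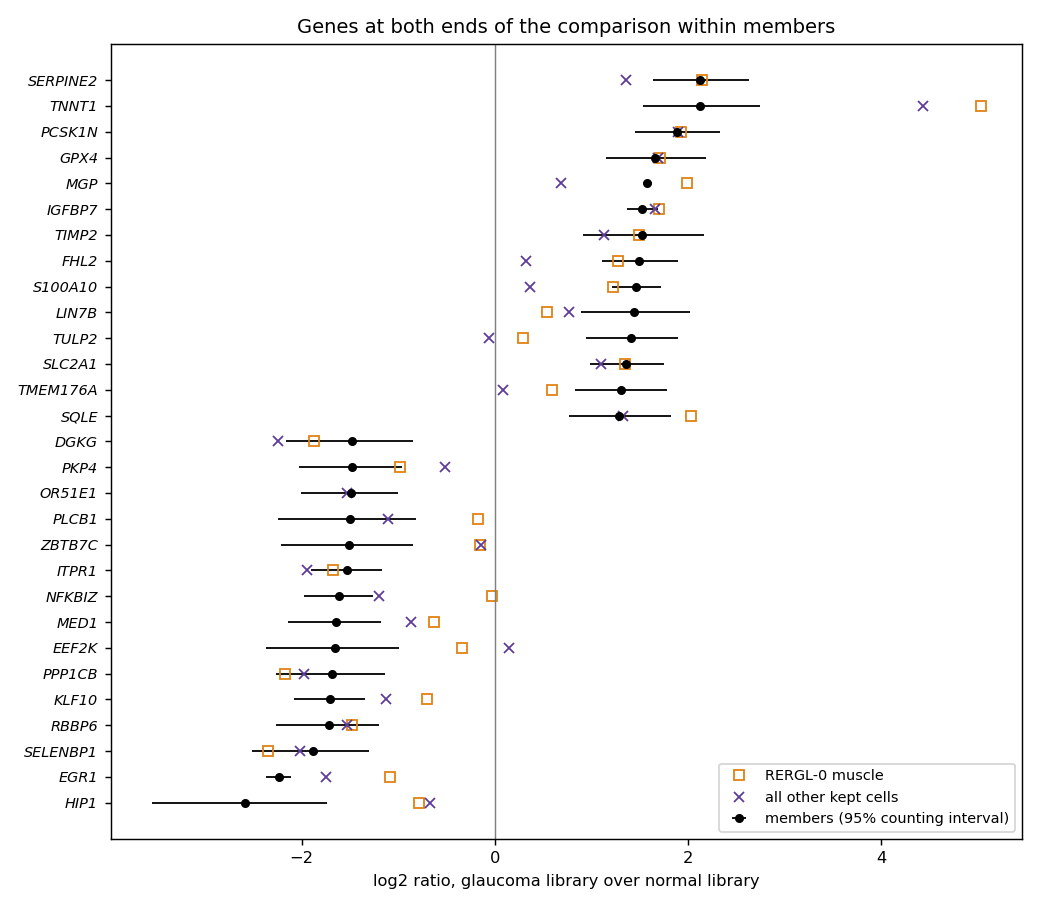
Log2 ratio of the glaucoma over the normal library for genes among the 15 highest and 15 lowest in members (black, with 95% counting intervals), with the same ratio in muscle cells without RERGL (orange squares) and in all other kept cells (purple crosses). MGP, IGFBP7 and GPX4 lie above 1 in members and muscle without RERGL alike, while HIP1 lies at -2.58 in members and at -0.79 and -0.67 in the other cells.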

How the data were processed

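Trabecular meshwork cells of rhesus macaques were profiled by droplet single-cell RNA sequencing in 1 glaucoma and 1 normal library. The deposited values are whole-number UMI counts per gene and barcode. The file headers name Cell Ranger 6.0.0, whereas the submitters' processing notes name Cell Ranger 4.0 and Seurat 3.0; the genome build is not given in the sources used here. Of 24037 features, 15580 carried a symbol in the files and 873 took one from a table of gene names.

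Barcodes with at least 500 genes and under 20% of UMIs in 12 mitochondrial features were kept. UMIs were summed over the cells of each kind and library and scaled to 1e+06 UMIs. Intervals are 95%: exact Poisson for levels, exact conditional binomial for ratios and Clopper-Pearson for shares. Cells are not replicates, so no p-value was computed. The code was tested on simulated data. Doublets were called with Scrublet in scanpy 1.11.5 and kept in the main values. Across the libraries 17 barcodes were shared, of which 0 were members. Python 3.11.15, numpy 2.4.6, scipy 1.17.1, pandas 2.3.3 and matplotlib 3.10.9 were used.

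Members and gene lists were chosen with earlier results of these data known. Genes of 23 lists could be named, as could the 15 at each end of glaucoma over normal and the 10 at each end of the other contrasts. The latter needed a call, at least 100 UMIs and no barcode with over 20% of the gene's UMIs, both over the cells compared (members and the other kind together in the contrasts of kinds), and no mitochondrial, ribosomal protein or haemoglobin gene. The comparison cells picked by pericyte genes held high levels of MYOC and so are not called pericytes. Macrophage-type cells held at least 3 of 6 macrophage genes. Some genes of the lists and of the ranked ends are not reported here.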

Additional observations from a re-analysis of the deposited data

Results flagged for a closer look

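Barcodes left out by the quality limits also met the gene rule. With 20% or more mitochondrial UMIs the glaucoma library had 41 and the normal library 9. These held 1485 and 1093 CPM of CHRM3 and 2606 and 3107 CPM of TAGLN, against 108 and 208 CPM and 15094 and 14964 CPM in members. With under 500 genes the glaucoma library had 11 and the normal library 22.

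MAMU-DRA, a class II histocompatibility gene, stood on opposite sides of muscle cells without RERGL in the 2 libraries. Its log2 ratio of members over that muscle was -1.30 for glaucoma and 2.30 for normal cells, and the difference was not tested. A single barcode held 39.4% and 83.1% of its UMIs in members.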

How the results depend on the processing

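No paired analysis was possible because each group had 1 library. The restrictions to at least 4 muscle genes, to at least 5 RERGL UMIs and to 0 UMIs of MYOC, and the comparison with RERGL-positive cells that held no muscle gene, were chosen after seeing the data. With 0 UMIs of MYOC 88 genes were higher in glaucoma, and 212 were higher and 63 lower in members over muscle without RERGL. The log2 ratio of shares was then -1.06, but the limit applied to members and not to all kept cells. MYOC was held by 45.7% of glaucoma and 30.9% of normal members, which by itself lowers this ratio. The value of -1.06 is therefore no result about abundance. With at least 4 muscle genes, 271 were lower over that muscle. A minimum of 100 UMIs gave 82 higher and 173 lower in glaucoma, 282 lower over muscle without RERGL and 117 lower over RERGL-positive cells with no muscle gene. A minimum of 20 UMIs gave 349 higher and 471 lower in glaucoma and 320 lower over RERGL-positive cells with no muscle gene. Thinning to 1500 UMIs gave 88 higher. The counts under other UMI minimums and under restrictions come from different numbers of genes tested and cells. DCN was called lower in members over muscle without RERGL but was 0.93 with at least 4 muscle genes; the cause was not tested. With no mitochondrial limit 15 of 342 genes of the text lost their call and 14 gained one. Of the 72 called genes 0 reversed. A turn of direction in a gene without a call, such as CHRM3, was not counted. Ratios against cells with 0 UMIs of a gene, as for CALML6 and P2RX1 under some restrictions, gave no value and were left out.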

Other observations

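STIMATE, an endoplasmic reticulum protein that promotes calcium entry, was among the genes with high levels in members, at 4669 and 3959 CPM against 719 and 844 CPM in muscle without RERGL. At least 1 UMI was present in 89.9% of glaucoma members.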
